A study of Mus musculus with 6 samples.

Results

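The genes of sphingosine-1-phosphate (S1P) signalling and metabolism were examined in brain endothelial cells of GLUT1EC-/- mice, against those of wild-type (WT) mice. The set holds 9 of the 23329 gene symbols in the count files: the receptors S1pr1, S1pr2, S1pr3, S1pr4 and S1pr5, the kinases Sphk1 and Sphk2, the exporter Spns2 and the lyase Sgpl1. The members were picked by name because the count of S1pr5 was lower in GLUT1EC-/-, so the difference in S1pr5 between the genotypes, and every member's difference in the same contrast, is given as a description and supports nothing by itself. Each genotype had 3 mice, all C57BL/6 and 8 weeks old, and RNA was taken from uncultured cells isolated by magnetic bead sorting (MACS). GLUT1EC-/- stands for deletion of Slc2a1, the gene of the glucose carrier GLUT1, in endothelial cells; the Cre driver, its timing and the deleted exons are not given in the sources used here. The study asked how the endothelial transcriptome differs between the genotypes.

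As background, S1P is a lipid made inside cells when a sphingosine kinase phosphorylates sphingosine. Endothelial cells release it through the transporter Spns2, and S1P lyase (Sgpl1) destroys it irreversibly. Outside the cell it acts on 5 G protein-coupled receptors, of which S1pr1 is the main endothelial form, tightens junctions and lets lymphocytes leave lymphoid organs. S1pr4 is known from blood cells, and S1pr5 from natural killer (NK) cells, non-classical (patrolling) monocytes, oligodendrocytes and brain endothelium.

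Total counts were 35323299 to 37868681 per GLUT1EC-/- library and 31874662 to 39424384 per WT library. GLUT1EC-/- 2 stood apart, with a scaling factor of 0.884 against 1.01 to 1.05 in the other 5 libraries. Slc2a1 was at 3735, 5414 and 3893 CPM (counts scaled to library size, with TMM factors) in the libraries labelled GLUT1EC-/- and at 3984, 4479 and 4172 CPM in WT, so its count does not separate the genotypes. Directions below are therefore between libraries as labelled. None of the 12 general endothelial markers examined, such as Pecam1, Cdh5 and Cldn5, passed the test between genotypes, and their summed level was 16341 to 18207 CPM in GLUT1EC-/- and 17658 to 18316 CPM in WT.

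S1pr5 lies on the minus strand of chromosome 9 (GRCm38, 21242912 to 21248443), where its exons share 51 bases with the predicted gene Gm48303 on the other strand. Its counts were 11, 7 and 14 in the libraries labelled GLUT1EC-/-, against 79, 169 and 79 in WT. On the CPM scale this was 0.287, 0.209 and 0.379 CPM in GLUT1EC-/-, against 2.44, 4.94 and 1.95 CPM in WT. The groups did not overlap, all 3 GLUT1EC-/- libraries were close to each other, and WT 2 was the highest library. The fitted log2 fold change was -3.39 (SE 0.48, 95% interval -4.50 to -2.28), a level 10.5-fold lower in GLUT1EC-/-. In WT cells 22.1% of the tested genes had a lower mean CPM than S1pr5, and in GLUT1EC-/- cells 1.92% did. The filter on low counts had removed genes low in both genotypes, while S1pr5 was kept for its WT counts. Its low place in GLUT1EC-/- thus follows in part from the filter and from the choice of the set. The description rests on 32 reads in all 3 GLUT1EC-/- libraries and 327 in all 3 WT libraries. With bulk RNA, fewer cells that express a gene and less of its RNA per cell cannot be told apart. Of 14838 genes tested, 0.445% were called lower in GLUT1EC-/- (quasi-likelihood test of edgeR, with p adjusted over all genes by Benjamini and Hochberg and a threshold of 0.05), and 1.31% in either direction. All 9 members passed the filter on low counts, 1 was called (S1pr5, the gene that chose the set) and 8 were not. S1pr5 stayed lower under every setting run, but its call was lost with the animal number series (200s or 500s) as a term in the fit, and also without WT 1, WT 2, WT 3 or GLUT1EC-/- 1.

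**Figure D1:**
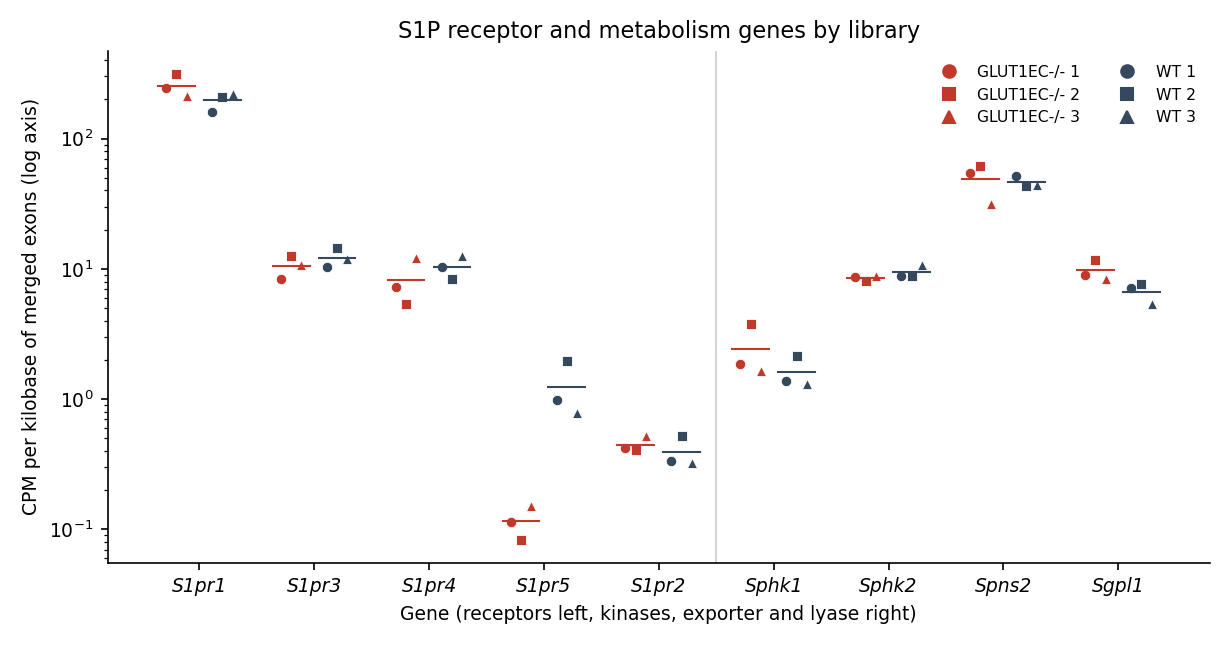
Level of each member in each library, in CPM per kilobase of merged exons on a log axis, for GLUT1EC-/- (left of each pair) and WT (right); points are libraries and lines are group means. S1pr5 is the member with a wide gap between genotypes, at 0.0837 to 0.152 in GLUT1EC-/- and 0.778 to 1.97 in WT, while S1pr1 is the highest member in every library.

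The 250 bases before the annotated start of S1pr5 are shown beside those of S1pr4, the other receptor linked to blood cells, whose groups overlapped, and those of Ear2, the gene whose profile over the libraries came closest to that of S1pr5 (below). The sequences are from RefSeq (GRCm38.p6), 5′ to 3′ on the gene's strand; 8 of the 9 members had an entry, all but S1pr1. Capitals mark CACCC or GGGTG, the core bound by KLF factors such as Klf2, and CAGGTG or CACCTG, an E-box bound by ZEB factors such as Zeb2.
S1pr5, chr9:21248444-21248693, minus strand: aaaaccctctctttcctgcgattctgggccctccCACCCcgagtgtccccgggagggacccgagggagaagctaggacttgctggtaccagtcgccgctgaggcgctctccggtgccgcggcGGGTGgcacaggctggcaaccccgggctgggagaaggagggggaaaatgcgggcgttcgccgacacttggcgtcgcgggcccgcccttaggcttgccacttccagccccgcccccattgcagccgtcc
S1pr4, chr10:81500138-81500387, minus strand: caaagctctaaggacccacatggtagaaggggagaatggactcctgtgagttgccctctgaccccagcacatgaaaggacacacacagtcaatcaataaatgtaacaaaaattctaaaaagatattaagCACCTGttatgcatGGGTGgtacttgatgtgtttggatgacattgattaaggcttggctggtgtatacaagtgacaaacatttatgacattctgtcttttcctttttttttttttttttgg
Ear2, chr14:44102404-44102653, plus strand: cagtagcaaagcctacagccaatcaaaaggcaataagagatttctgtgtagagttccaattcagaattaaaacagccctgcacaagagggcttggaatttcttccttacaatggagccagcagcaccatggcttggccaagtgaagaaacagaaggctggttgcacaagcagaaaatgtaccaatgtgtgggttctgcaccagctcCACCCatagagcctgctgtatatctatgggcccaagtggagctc
The S1pr5 window was rich in G and C (69.2%, with 22 CpG pairs), whereas that of S1pr4 had 38.8% and 0 CpG pairs and that of Ear2 47.6% and 0. The medians over 32851 windows of the same length were 52.4% and 6 CpG pairs. Such a window was not particular to S1pr5: that of Sgpl1 had 74.8% and 31 CpG pairs, and the first of Sphk2 had 67.6% and 27. The KLF core was found 2 times before S1pr5, 1 time before S1pr4 and 1 time before Ear2, and 52.0% of all windows hold it. The E-box was found 1 time before S1pr4 and in 17.2% of all windows. The T-box half-site GGTGTGA (or TCACACC), known as the site of Tbx21, was searched as well; it is in none of these 3 windows and in 3.33% of all windows. Both strands were searched, and these motifs can share letters. A match is a run of letters and does not show binding.

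S1pr1 (chromosome 3, 115710433 to 115715072, minus strand, GRCm38 as for all positions), the junction-tightening receptor, dominated the family in both genotypes. Per kilobase of merged exons it was at 243, 313 and 211 CPM in GLUT1EC-/- and at 160, 210 and 221 CPM in WT. It made up 89.9% to 94.5% of the summed per-length level of the 5 receptors in GLUT1EC-/- libraries and 87.8% to 89.7% in WT libraries. These shares did not overlap, but the highest WT and lowest GLUT1EC-/- values were 89.7% and 89.9%, and the difference was not tested. In CPM, S1pr1 was at 739, 953 and 643 in GLUT1EC-/- and 487, 641 and 674 in WT. The groups overlapped, and the log2 fold change was 0.37 (SE 0.19, 95% interval -0.07 to 0.82).

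S1pr3 (chromosome 13, 51408639 to 51422797, plus strand), a receptor of vascular smooth muscle and endothelium, was at 37.4, 55.6 and 48.4 CPM in GLUT1EC-/- and 46.4, 64.3 and 53.0 CPM in WT. The groups overlapped, with a log2 fold change of -0.21 (SE 0.19, 95% interval -0.64 to 0.22). The per-length ratio of S1pr1 to S1pr3 was 29.0, 25.1 and 19.5 in GLUT1EC-/- libraries, against 15.4, 14.6 and 18.7 in WT libraries. All GLUT1EC-/- ratios lay above the WT ones, the nearest by little, and this was not tested either. S1pr4 (chromosome 10, 81497747 to 81500132, minus strand), the blood cell receptor, was at 17.4, 12.8 and 28.8 CPM in GLUT1EC-/- and 24.8, 20.0 and 29.9 CPM in WT, and its log2 fold change was -0.34 (SE 0.29, 95% interval -1.01 to 0.34). The interval reaches a fold of 0.496 and does not show that S1pr4 is unaltered. S1pr2 (chromosome 9, 20962361 to 20976781, minus strand), which opposes S1pr1 at the endothelial barrier, was low at 3.34, 3.23 and 4.17 CPM in GLUT1EC-/- and 2.69, 4.18 and 2.56 CPM in WT (log2 fold change 0.19, SE 0.28).

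Ordered by mean level per kilobase, GLUT1EC-/- cells had S1pr1 (255), Spns2 (49.3), S1pr3 (10.6), Sgpl1 (9.72), Sphk2 (8.53), S1pr4 (8.26), Sphk1 (2.42), S1pr2 (0.449) and S1pr5 (0.117). In WT cells the order was S1pr1 (197), Spns2 (46.5), S1pr3 (12.2), S1pr4 (10.4), Sphk2 (9.49), Sgpl1 (6.7), Sphk1 (1.61), S1pr5 (1.24) and S1pr2 (0.394). The middle places are not resolved: library values of S1pr3, S1pr4 and Sphk2 overlapped in both genotypes, as did those of Sgpl1 with all 3 in GLUT1EC-/- and those of Sphk1 with S1pr5 in WT. Per kilobase, S1pr5 and S1pr2 did not overlap in either genotype, and their order differs. S1pr5 lay at 0.0837 to 0.152 CPM per kilobase in GLUT1EC-/-, below S1pr2 at 0.405 to 0.523, and at 0.778 to 1.97 in WT, above S1pr2 at 0.321 to 0.524. Before division by length the WT values overlapped, at 1.95 to 4.94 CPM for S1pr5 and 2.56 to 4.18 CPM for S1pr2. The WT order thus rests on merged exon lengths of 2500 bases for S1pr5 and 7971 for S1pr2.

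Spns2 (chromosome 11, 72451638 to 72489904, minus strand), the endothelial S1P exporter, was the second most abundant member. It was at 223, 253 and 128 CPM in GLUT1EC-/- and 212, 176 and 181 CPM in WT, with a log2 fold change of 0.08 (SE 0.24). GLUT1EC-/- 3 was the lowest of all 6 libraries and GLUT1EC-/- 2 the highest, and without GLUT1EC-/- 2 the log2 fold change was -0.12. The exons of Spns2 share 131 bases with Mybbp1a on the other strand, so some of its reads are uncertain where the strand setting is unknown.

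Sphk1 (chromosome 11, 116530925 to 116536674, plus strand), the inducible cytoplasmic kinase, was at 8.93, 18.0 and 7.82 CPM in GLUT1EC-/- and 6.56, 10.3 and 6.26 CPM in WT. The log2 fold change was 0.59 (SE 0.35, 95% interval -0.22 to 1.39), and GLUT1EC-/- 2 stood above the other 5 libraries; without it the value was 0.12. Sphk2 (chromosome 7, 45709467 to 45718002, minus strand), the kinase also found in the nucleus, was the steadiest member within GLUT1EC-/-, though not within WT. It was at 36.1, 33.8 and 36.6 CPM in GLUT1EC-/- and 36.6, 37.0 and 44.9 CPM in WT (log2 fold change -0.15, SE 0.13). Its exons share 539 bases with the clock gene Dbp and 373 with Rpl18 on the other strand. Dbp itself was at 37.2, 21.3 and 13.3 CPM in GLUT1EC-/- and 114, 97.5 and 39.2 CPM in WT, so reads of Dbp, if counted for Sphk2, would move with genotype; their part was not tested. The per-length ratio of Sphk2 to Sphk1 was 4.64, 2.16 and 5.37 in GLUT1EC-/- and 6.40, 4.13 and 8.24 in WT, with overlapping groups.

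Sgpl1 (chromosome 10, 61098642 to 61147703, minus strand), the lyase that ends S1P signalling by cleaving the lipid, was the other member besides S1pr5 whose groups did not overlap. It was at 55.1, 72.6 and 51.3 CPM in GLUT1EC-/- and 43.5, 46.9 and 33.2 CPM in WT. The lowest GLUT1EC-/- library lay above the highest WT library, and the log2 fold change was 0.54 (SE 0.19, 95% interval 0.11 to 0.96). Among all genes tested, 11.7% had groups that did not overlap with GLUT1EC-/- higher and 11.2% with GLUT1EC-/- lower, 22.9% in all, and 1 member lay on each side. Sgpl1 was not called over all genes.

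**Figure D2:**
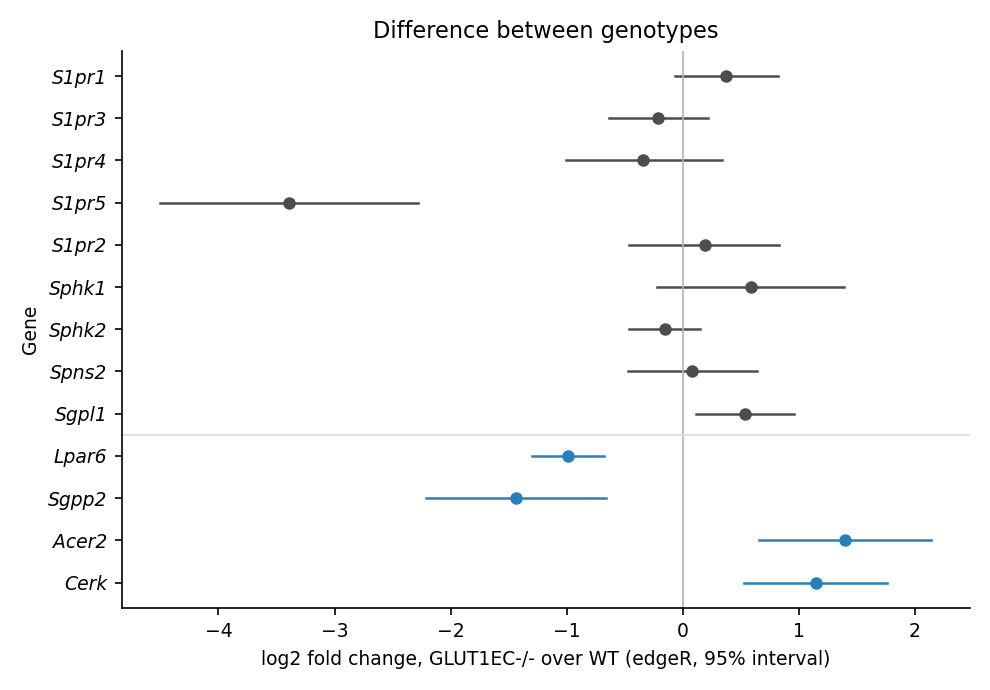
Fitted log2 fold change of GLUT1EC-/- over WT with its 95% interval for the 9 members (grey) and 4 further genes of sphingolipid and lysophospholipid metabolism (blue). S1pr5 at -3.39 lies far to the left of the other members, which run from -0.34 to 0.59.

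The wider pathway was described by 72 genes that are not members, of which 68 were tested. Of these, 1 rose, 1 fell and 66 did not pass (edgeR), against 0.863% of all tested genes called higher and 0.445% called lower. The median log2 fold change of the 68 was 0.08, against 0.01 over all genes tested. The 15 tested genes of ceramide and sphingomyelin turnover had a median of 0.14.

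Lpar6, a receptor for lysophosphatidic acid, a lipid mediator related to S1P, fell to 42.6, 44.6 and 46.1 CPM in GLUT1EC-/-, against 99.4, 86.9 and 78.2 CPM in WT. The groups were well apart, and the 3 GLUT1EC-/- libraries had nearly the same level (log2 fold change -0.99, SE 0.13; adjusted p = 0.0203, edgeR). Lpar6 lies on the plus strand of chromosome 14 and shares 408 exon bases with Rb1 on the other strand. It was the 1 called gene of 6 tested in its list, whose median log2 fold change was -0.12; Enpp2, the enzyme autotaxin that makes lysophosphatidic acid, was at 2295, 1153 and 1772 CPM in GLUT1EC-/- and 1583, 1850 and 2079 CPM in WT. The call of Lpar6, too, was lost with the animal number series as a term (edgeR adjusted p = 0.0921, log2 fold change -0.96) and without WT 1, WT 2, WT 3 or GLUT1EC-/- 1 (edgeR adjusted p 0.00305 to 0.145 as each of the 6 libraries was left out).

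In 4 further lists no gene passed: 0 of 8 S1P phosphatases, carriers and other transporters (median log2 fold change 0.25), 0 of 15 genes of sphingoid base and ceramide synthesis (0.05), 0 of 18 genes of receptor coupling (0.07) and 0 of 6 known regulators of S1P receptors (-0.23). Over all 68 genes, 12 had an unadjusted edgeR p under 0.05. The matching share of all tested genes was not computed, so this count does not show whether there is an excess. DESeq2 called 6 of the pathway genes and limma-voom 2. Over all genes DESeq2 called 878 and limma-voom 148, against 194 with edgeR. Sgpp2, an S1P phosphatase, was at 111, 54.1 and 162 CPM in GLUT1EC-/- and 305, 305 and 275 CPM in WT. Every GLUT1EC-/- library was lower and they varied more among themselves (coefficient of variation 49.4%, against 5.96% in WT), and the log2 fold change was -1.44 with an SE of 0.34 (adjusted p = 0.0945, edgeR). Sgpp2 was called with DESeq2, without GLUT1EC-/- 2 and without GLUT1EC-/- 3, and under no other setting. Its exons share 248 bases with Farsb on the other strand. Mfsd2a, a lipid transporter of brain capillaries, was at 259, 333 and 227 CPM in GLUT1EC-/- and 304, 265 and 209 CPM in WT. Among the most abundant genes of synthesis were Lass2 (now Cers2), a ceramide synthase, at 147 to 177 CPM in GLUT1EC-/- and 149 to 163 CPM in WT, and Degs2, a desaturase, at 90.3 to 149 CPM in GLUT1EC-/- and 116 to 143 CPM in WT.

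A pair of genes was added after their values were seen. Acer2, an alkaline ceramidase that yields sphingosine, the substrate of the kinases, was at 955, 1271 and 466 CPM in GLUT1EC-/- and 308, 378 and 337 CPM in WT (log2 fold change 1.40, SE 0.32; adjusted p = 0.0893, edgeR). Cerk, the ceramide kinase, was at 57.8, 103 and 47.0 CPM in GLUT1EC-/- and 31.5, 30.8 and 31.5 CPM in WT (log2 fold change 1.15, SE 0.27; adjusted p = 0.094, edgeR). In both genes every GLUT1EC-/- library was above every WT library, GLUT1EC-/- 2 was the highest, and neither passed over all genes. Without GLUT1EC-/- 2 Cerk was called and Acer2 was not, and without GLUT1EC-/- 3 both were. DESeq2 also called both.

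No gene of receptor coupling passed the test. Gnai2, the Gi subunit through which S1pr1 signals, was at 1188, 1366 and 1171 CPM in GLUT1EC-/- and 1185, 1133 and 1303 CPM in WT, and the GTPase Rac1 was at 491, 613 and 493 CPM in GLUT1EC-/- and 462, 481 and 489 CPM in WT. Over the 18 genes the log2 fold changes ran from -0.84 to 0.35. Klf2, a flow-responsive factor known to drive S1pr1, was at 391 to 504 CPM in GLUT1EC-/- and 473 to 492 CPM in WT, and Foxo1 was at 126 to 135 CPM in GLUT1EC-/- and 161 to 167 CPM in WT (adjusted p = 0.261 by edgeR, for a log2 fold change of -0.31). Factors known to drive S1pr5 in NK cells of mice, named after their values were seen, were not called. Tbx21 was at 2.66, 1.94 and 1.16 CPM in GLUT1EC-/- and 2.23, 2.86 and 2.54 CPM in WT, and Zeb2 at 70.9, 68.8 and 69.8 CPM in GLUT1EC-/- and 55.7, 73.5 and 49.4 CPM in WT.

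To see which genes share the profile of S1pr5, log2 CPM (prior count 2) was centred on each gene's mean over the 6 libraries. Genes were then ranked by the root mean square difference from S1pr5. Of 12228 genes compared, the closest were Ear2 (0.23), Krt80 (0.40), Cd300ld (0.45), Col14a1 (0.46), Pilra (0.53), Itgal (0.56), Trem1 (0.58), Alpl (0.62), Spn (0.62) and Myo1g (0.62). Chosen for likeness to S1pr5, all 10 had lower values in GLUT1EC-/-, and this is not a further result; their log2 fold changes ran from -3.65 to -2.04. In 8 of the 10, WT 2 was the highest WT library, as for S1pr5. The choice by profile favours this too, so it is not a further result either. Ear2, an eosinophil-type ribonuclease gene of a family with near-identical copies, was at 0.627, 0.359 and 0.758 CPM in GLUT1EC-/- and 5.51, 11.7 and 5.03 CPM in WT, and its count is uncertain for that reason. Cd300ld, a receptor of myeloid cells, averaged 2.75 ± 0.748 CPM in GLUT1EC-/- and 14.4 ± 6.68 CPM in WT (SD, n = 3 each). Trem1, a myeloid receptor that amplifies inflammation, was at 1.67, 2.45 and 2.27 CPM in GLUT1EC-/- and 7.83, 17.1 and 5.79 CPM in WT. Not all of the 10 have such a role: Alpl, the tissue-nonspecific alkaline phosphatase abundant on brain capillaries, was at 125, 75.3 and 156 CPM in GLUT1EC-/- and 528, 513 and 452 CPM in WT, and Krt80 is a keratin. In Alpl, the WT libraries were close together and WT 2 was not the highest. The other members of the S1P set ranked between 2032 (S1pr4) and 11280 (Sphk1) of 12228.

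**Figure D3:**
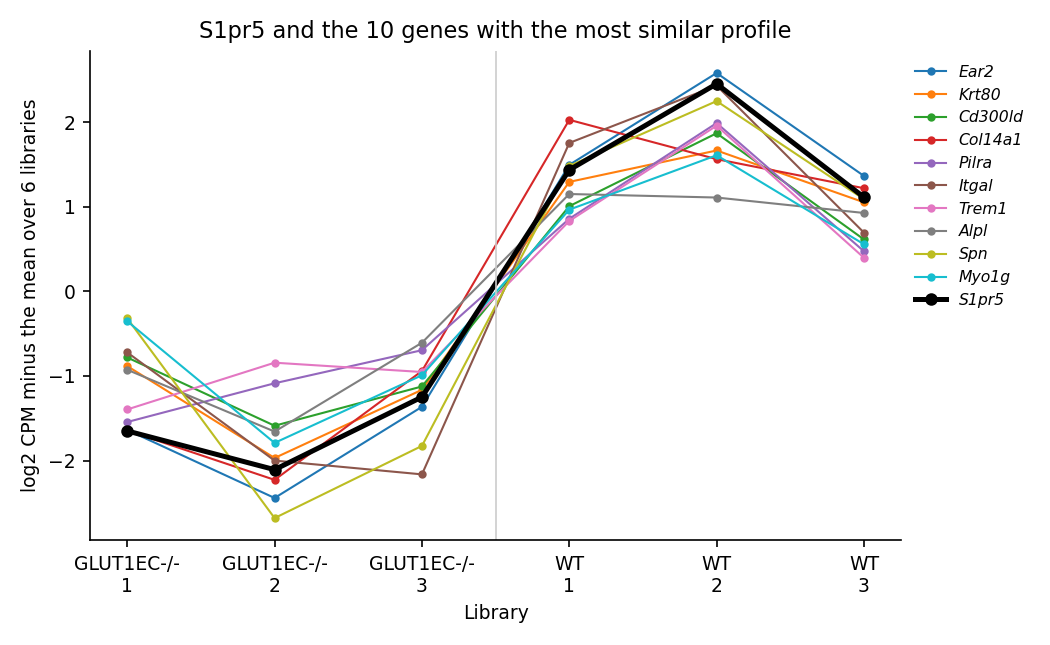
Log2 CPM minus its mean over the 6 libraries for S1pr5 (black) and the 10 genes of most similar profile, with GLUT1EC-/- libraries on the left and WT on the right. The lines are drawn without a prior count, whereas the ranking used a prior count of 2. The lines of most genes peak in WT 2, as S1pr5 does, where it had 4.94 CPM. The genes were chosen for likeness to S1pr5, which favours such a peak.

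Markers of the other cell types known to express S1pr5 were examined list by list. Of 8 non-classical monocyte markers, all tested, 5 fell, 0 rose and 3 did not pass, with a median log2 fold change of -3.46 against 0.01 over all genes. Their summed level was 8.66 to 20.3 CPM in GLUT1EC-/- and 61.6 to 180 CPM in WT, with WT 2 highest. The called ones were Cd300e (0.235, 0.0299 and 0.108 CPM in GLUT1EC-/-, against 5.82, 9.96 and 4.51 CPM in WT, edgeR adjusted p = 0.012), Emr4 (now Adgre4), Treml4, Ear2 and Itgal. Spn was lower without passing (adjusted p = 0.0547), Pou2f2 overlapped, and Fabp4 had a log2 fold change of 0.90. None of the 8 was at 0 in all GLUT1EC-/- libraries.

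Of the 12 NK cell markers, 8 were tested, 2 fell and 6 did not pass. The granule protease gene Gzma was at 0.0522, 0 and 0.135 CPM in GLUT1EC-/-, against 0.897, 0.993 and 1.63 CPM in WT (adjusted p = 0.0432, edgeR). Prf1, the pore-forming perforin, was at 0.0783, 0 and 0.0271 CPM in GLUT1EC-/-, against 0.588, 0.526 and 0.591 CPM in WT (adjusted p = 0.0499, edgeR). The summed level of the list was 3.14 to 7.34 CPM in GLUT1EC-/- and 9.16 to 11.1 CPM in WT. Ncr1, a defining NK receptor, was at 0.104, 0 and 0 CPM in GLUT1EC-/- and 0.124, 0.175 and 0.222 CPM in WT. Of the 8 tested markers, 7 had a log2 fold change below 0, while Klrk1 was at 0.60 with overlapping groups. Klrd1 and Klrb1c, not tested, were highest in GLUT1EC-/- 1, at 0.444 and 0.339 CPM. Per kilobase of merged exons, S1pr5 was at 0.978, 1.97 and 0.778 CPM in WT, above every NK marker in WT 2. Gzma (0.892, 0.987 and 1.62) and Nkg7 (0.88, 0.991 and 1.59) were below S1pr5 in WT 1 and WT 2 and above it in WT 3. Prf1 and Ncr1 were below S1pr5 in each WT library.

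Of 10 oligodendrocyte markers, 9 were tested, of which 8 did not pass. The list's median was -0.33, whereas its summed level was 1248 to 3266 CPM in GLUT1EC-/- and 766 to 799 CPM in WT. Mal was a large part of that sum, with 1158, 2901 and 924 CPM in GLUT1EC-/- and 356, 405 and 398 CPM in WT. Classical monocyte markers had 0 of 6 called and a summed level of 36.6 to 58.3 CPM in GLUT1EC-/- and 26.7 to 38.4 CPM in WT. B cell markers had 1 of 5 called, lower, and T cell markers 0 of 6. Of the microglia markers 2 of 8 were called, both higher, and of the fibroblast markers 1 of 6, higher; the microglia sum was 592 to 1309 CPM in GLUT1EC-/- and 433 to 515 CPM in WT. The part of these cell types in the level of S1pr5 was not tested, and the monocyte list was written with its fall in these libraries already known.

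**Figure D4:**
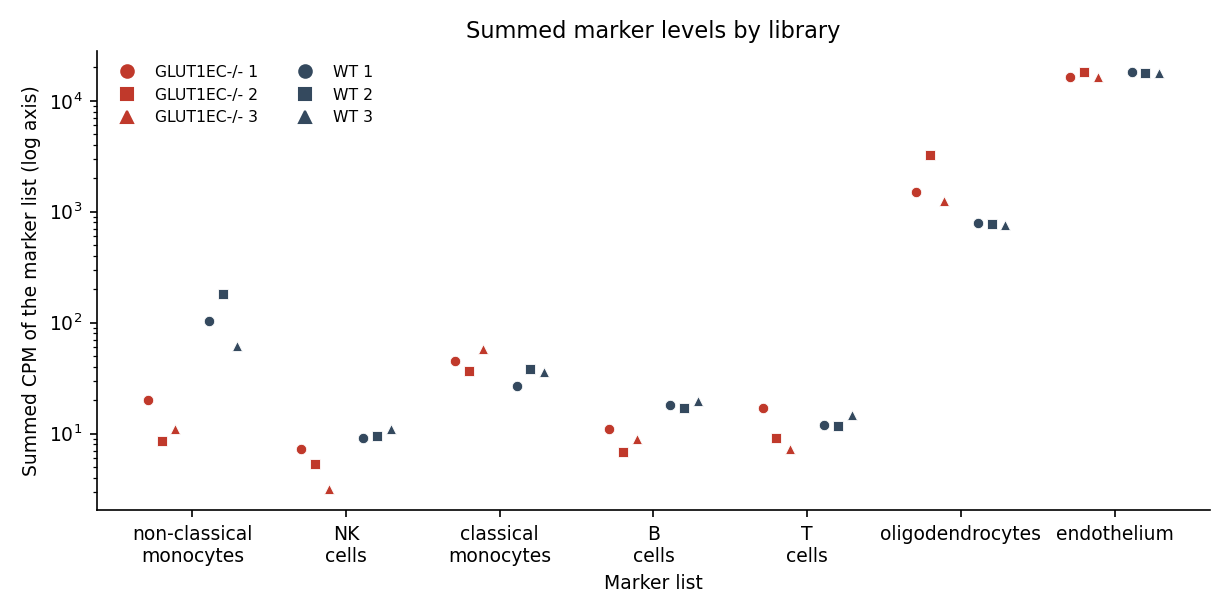
Summed CPM of each marker list in each library on a log axis, GLUT1EC-/- left and WT right in each pair. The non-classical monocyte list spans 8.66 to 20.3 in GLUT1EC-/- and 61.6 to 180 in WT, and the endothelial list lies at 16341 or above in all libraries.

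Spread within a genotype differed between members. Over the GLUT1EC-/- libraries the coefficient of variation ran from 4.08% (Sphk2) to 48.0% (Sphk1), and over the WT libraries from 10.5% (Spns2) to 51.5% (S1pr5). GLUT1EC-/- 2 was the highest GLUT1EC-/- library for S1pr1, S1pr3, Sphk1, Spns2 and Sgpl1 and the lowest for S1pr2, S1pr4, S1pr5 and Sphk2. Among the WT libraries, WT 2 was the highest for 5 members, S1pr5 among them. Within the mice with animal numbers in the 200s, the difference in mean log2 CPM (prior count 2) between genotypes was -3.37 for S1pr5 and 0.29 for Sgpl1, and within the 500s -2.56 and 0.88. Both genes thus had the same direction in both number series, with 1 GLUT1EC-/- and 2 WT libraries in the 200s, 2 GLUT1EC-/- and 1 WT in the 500s, and no test; what the series stand for is not stated.

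**Figure D5:**
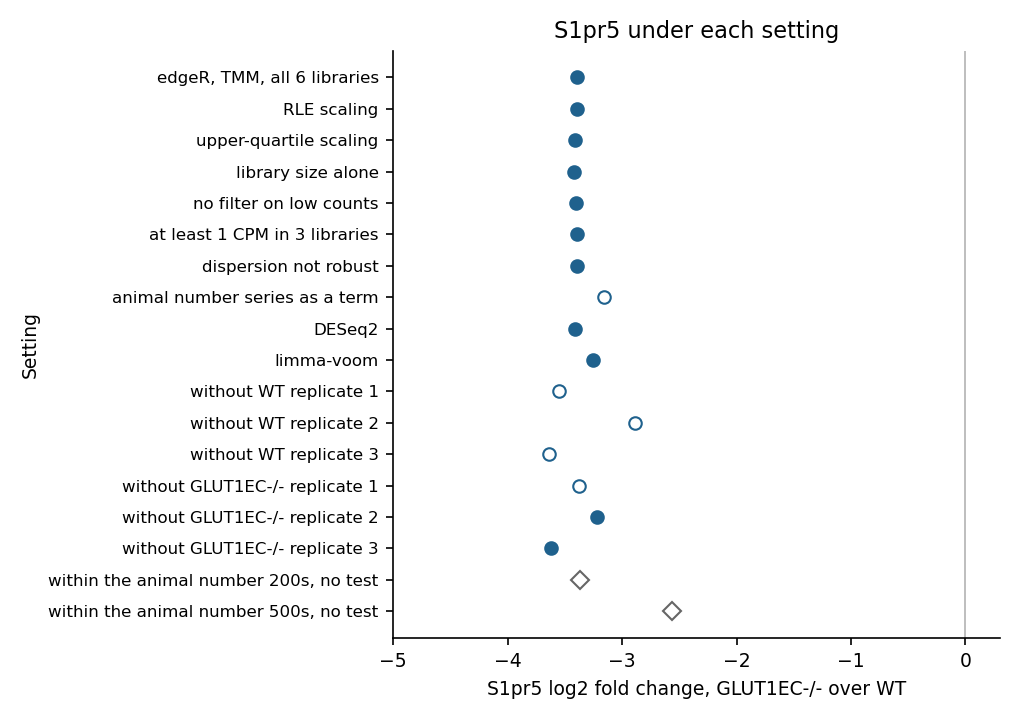
Log2 fold change of S1pr5, GLUT1EC-/- over WT, under each setting (filled circles: adjusted p under 0.05; open circles: not under 0.05; open diamonds: within an animal number series, no test). All points lie between -3.64 and -2.56.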

How the data were processed

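RNA of MACS-sorted brain endothelial cells was sequenced from 3 GLUT1EC-/- and 3 WT mice as stranded mRNA libraries, per the labels' protocols. The submitters' processing notes name STAR, featureCounts and the build GRCm38; their versions, the annotation and the strand setting are not given in the sources used here. What the authors deposited is a whole-number read count for each of 23329 gene symbols per library, without normalization. The labels name no molecular identifiers, so amplified copies cannot be told from separate molecules.

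Genotype was the only term in edgeR 4.0.16's quasi-likelihood F test (R 4.3.3, TMM scaling, filterByExpr with a minimum count of 10, robust dispersions), fitted to 14838 genes with Benjamini-Hochberg adjustment and a threshold of 0.05. With 3 animals per group, p-values rest on the spread between those animals. CPM uses TMM factors; per-length levels divide it by merged exon length in GENCODE M21 on GRCm38. Older symbols were matched through RefSeq. DESeq2 1.42.0 and limma-voom (limma 3.58.1) were alternatives, beside other scalings, filters, the number series as a term and each library left out. On simulated counts for these 14838 genes, edgeR recovered 6.35%, 65.1%, 85.0% and 100% of genes changed 1.5-, 2-, 4- and 12-fold, with 4.80% false calls. The simulation took its spread from the dispersion trend alone, without spread particular to a gene or library. These rates therefore need not hold for the real libraries.

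The members and lists were chosen with earlier results of these data known. Named genes are the members, Slc2a1, up to 4 called genes per pathway list or, in a list with no call, the 2 of highest mean CPM, the 10 genes (mean of at least 1 CPM, no predicted genes) most like S1pr5, and up to 3 called markers per list of cell types known to express it. The other monocyte markers, Acer2, Cerk, Enpp2, Tbx21, Zeb2, Dbp, Mal, Ncr1, Klrk1, Klrd1 and Klrb1c were named after their values were seen. A pair of called genes that this rule names is not reported here.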

Additional observations from a re-analysis of the deposited data

How the results depend on the processing

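The log2 fold change of S1pr5 was negative under all 17 alternatives. It was -3.16 with the animal number series as a term, -2.56 within the 500s, and -3.64 to -2.89 as each library was left out; its call held in 10 of the 15 alternatives with a test. The number of members called was thus 0 with the number series as a term and 0 to 1 as libraries were left out. Of other pathway genes, 0 were called with the number series as a term, 6 with DESeq2 and 0 to 5 as libraries were left out. Over all genes, against 194 calls, there were 14 with the number series as a term, 878 with DESeq2 and 0 (without WT 1) to 862 (without GLUT1EC-/- 2) as libraries were left out; the cause of these shifts was not tested. Members near 0 turned sign: S1pr2 was at -0.01 within the 200s, and Spns2 at -0.01 within the 500s and -0.12 (without GLUT1EC-/- 2) to 0.33 as libraries were left out. Slc2a1 was at -0.02 with library size alone, -0.01 with the number series as a term and -0.15 (without GLUT1EC-/- 2) to 0.14 as libraries were left out. The other 6 members kept their direction under all 17 alternatives. No paired analysis was possible because the labels number the animals, no animal number is shared between the genotypes, and the replicate numbers only follow the order of deposit. At 7 to 14 reads per GLUT1EC-/- library, counting error limits the S1pr5 ratio, and changes of 1.5-fold were mostly out of reach on the simulated counts.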
